A study of Mus musculus with 15 samples.

Results

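Aminoacyl-tRNA synthetases join each amino acid to its transfer RNA. The 35 genes described here encode 19 cytosolic and 16 mitochondrial enzymes. They were chosen by gene symbol, older symbols included, and all 35 had a probe set among the 18193 genes measured. The genes are picked without an expression value, but the probe set with the highest mean stands for each gene. The list was drawn up with earlier results of these data known.

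RNA came from mammospheres, spheres grown for 7 days without attachment from cells of primary mammary tumours of FVB/N mice of the genotype WAPCre-DNbcatn;HGF, and was read on microarrays after 24 h of treatment. The treatments were PHA, ICG and PHA+ICG, with DMSO as the vehicle control, and each group had 3 arrays. In general use PHA names an inhibitor of the kinase MET, the receptor of HGF, and ICG one of β-catenin-driven transcription; the labels give neither doses nor full names. Cre under the WAP promoter acts in mammary epithelium, the HGF and DNbcatn alleles are shared by treated and control cells, and the mice's age is not stated. The titles carry 2 codes: PHA, ICG and 3 DMSO arrays bear the first (JAH, called set 1), and PHA+ICG and another 3 DMSO arrays the second (JHO-5, set 2). What a code stands for is not given, so each treatment was set against DMSO of its own code. PHA and ICG therefore share their DMSO arrays.

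Cytosolic synthetases charge the tRNAs that decode nuclear messages, and mitochondrial synthetases, which are nuclear-encoded and imported, charge those of the mitochondrial genome. Several cytosolic enzymes sit together in the multi-synthetase complex. When amino acids run short or the endoplasmic reticulum is stressed, kinases phosphorylate the translation factor eIF2α, translation of the transcription factor ATF4 increases, and ATF4 with C/EBP partners activates genes of amino acid synthesis, amino acid transport and tRNA charging through C/EBP-ATF response elements.

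Values are log2 probe set values, and a change is treated minus DMSO on that scale, ± SE of the fit. A gene was called higher or lower at an adjusted p under 0.05 in limma, with Benjamini-Hochberg adjustment over the 18193 genes of a comparison. The arrays of set 2 spread more. The median SD within a group over all genes was 0.236 in set 2 and 0.107 in set 1, and over the synthetase genes it was 0.228 and 0.0755. Arrays of the same group correlated at 0.976 to 0.987 with PHA+ICG and 0.982 to 0.995 with its DMSO, and at 0.995 or above throughout set 1. The labels do not say whether replicates are separate cultures or animals, so a p-value here measures the spread between these arrays. Of 9 epithelial markers 7, Epcam, Cdh1, Krt8 and Krt18 among them, read 8.02 or more on every array, while the keratin genes Krt5 and Krt19 read 5.89 to 7.32 and 5.12 to 7.16. The fibroblast gene Dcn read 13.61 or more.

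ICG against DMSO asks what happens to synthetase genes when the β-catenin arm is inhibited. With ICG 12 of 19 cytosolic genes rose and 4 fell, and 3 of 16 mitochondrial genes rose and 0 fell. Over all genes 26.9% were called, 11.9% higher and 15% lower. The median change was 0.61 for the cytosolic genes, 0.07 for the mitochondrial genes and 0.03 for all genes. The lists also differ in signal. Averaged over the 15 arrays, the cytosolic genes read 8.48 (Cars1) to 12.21 (Nars1) and the mitochondrial genes 4.03 (Mars2) to 8.86 (Rars2). The part of signal level in the gap between the lists, and in the pairs below, was not tested. All 3 ICG arrays lay above all 3 DMSO arrays for 13 cytosolic and 5 mitochondrial genes (20.2% of all genes), and below them for 4 and 1 (20.4% of all genes). In bulk samples a change in RNA per cell and a change in the share of cells of a type cannot be told apart.

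**Figure D1:**
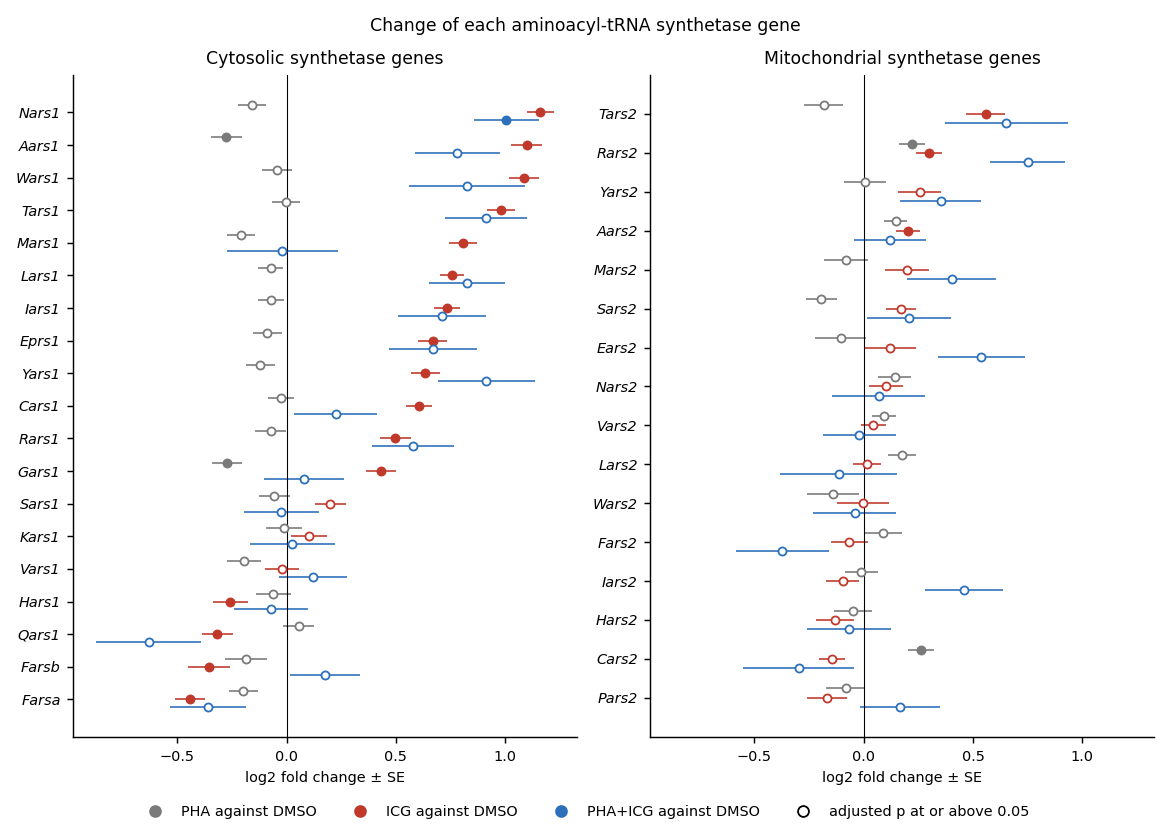
Change of each synthetase gene (log2 fold change, points, with SE as bars) with PHA, ICG and PHA+ICG, each against the DMSO arrays of its set; filled points have an adjusted p under 0.05. With ICG 12 cytosolic and 3 mitochondrial genes have filled points right of 0 and 4 cytosolic genes left of it, while with PHA+ICG only Nars1 is filled.

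The cytosolic gene with the largest change was Nars1, which encodes the asparaginyl enzyme. It read 12.71, 12.73 and 12.82 with ICG, against 11.67, 11.59 and 11.52 with DMSO, a change of 1.16 ± 0.06 or 2.24-fold (limma adjusted p = 3.62e-06). The 3 ICG arrays lay close together and far above every DMSO array of their set. The alanyl enzyme gene Aars1 read 11.35, 11.29 and 11.40 with ICG, against 10.28, 10.27 and 10.19 with DMSO, a change of 1.10 ± 0.07 (limma adjusted p = 1.01e-05). Again neither group reached the other. Wars1, whose product charges tryptophan tRNA and which is also induced by interferon in many cell types, read 9.40, 9.55 and 9.32 with ICG, against 8.31, 8.35 and 8.36 with DMSO, a change of 1.09 ± 0.07.

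The threonyl enzyme gene Tars1 read 10.70, 10.74 and 10.74 with ICG, against 9.78, 9.80 and 9.66 with DMSO, a change of 0.98 ± 0.06. The ICG arrays were nearly equal and lay above all DMSO arrays. The methionyl enzyme gene Mars1 read 9.80, 9.82 and 9.86 with ICG, against 8.96, 9.09 and 9.01 with DMSO, a change of 0.81 ± 0.06. The other 7 genes that rose changed by less. They were Lars1 for leucine (0.76 ± 0.06), Iars1 for isoleucine (0.73 ± 0.06), Eprs1, which charges both glutamate and proline tRNAs (0.67 ± 0.07), Yars1 for tyrosine (0.63 ± 0.07), Cars1 for cysteine (0.61 ± 0.06), Rars1 for arginine (0.50 ± 0.07) and Gars1 for glycine (0.43 ± 0.07). All 12 calls held whichever array was left out, and 11 of them with all 15 arrays in 1 unweighted fit, where Gars1 missed (adjusted p = 0.0528).

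**Figure D2:**
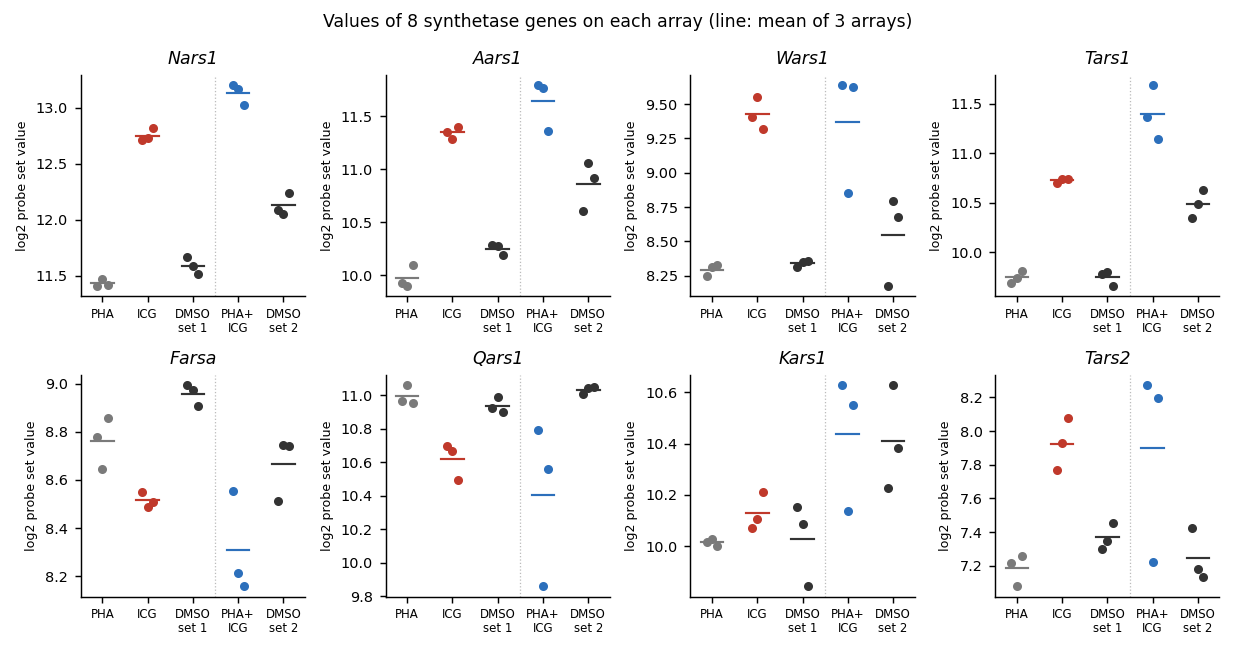
Log2 probe set value of 8 synthetase genes on each array (points) with the mean of 3 arrays (lines), by treatment with the DMSO arrays of the same set to its right. Nars1, Aars1, Wars1 and Tars1 read higher on every ICG array than on every DMSO array of set 1, Farsa and Qars1 read lower, and Kars1 overlaps.

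The 4 cytosolic genes that fell with ICG encode both subunits of the phenylalanyl enzyme and the glutaminyl and histidyl enzymes. Farsa, the gene of the catalytic subunit, read 8.55, 8.49 and 8.51 with ICG, against 8.99, 8.97 and 8.91 with DMSO, a change of −0.44 ± 0.07 (limma adjusted p = 0.00099). All ICG arrays were below all DMSO arrays. Farsb, the gene of the other subunit, read 10.61, 10.48 and 10.30 with ICG, against 10.95, 10.75 and 10.77 with DMSO (−0.36 ± 0.10, limma adjusted p = 0.0204). Qars1 read 10.70, 10.67 and 10.49 with ICG, against 10.92, 10.99 and 10.90 with DMSO (−0.32 ± 0.07), and Hars1 read 9.64, 9.62 and 9.53, against 9.69, 9.96 and 9.91 (−0.26 ± 0.08, limma adjusted p = 0.0385). These groups did not overlap either, but for Hars1 the highest ICG array lay just below the lowest DMSO array.

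In the unweighted fit of all 15 arrays 1 of the 4 decreases was called, that of Farsa (adjusted p = 0.031), and Farsb (0.0961), Hars1 (0.257) and Qars1 (0.366) were not. The call of Hars1 was lost without any 1 of 5 arrays (DMSO replicate 2 or 3, or any ICG array, at adjusted p-values of 0.0611 to 0.135), and that of Farsb without DMSO replicate 1 (0.0624) or ICG replicate 3 (0.0723). Other probe sets of Farsa and Qars1 read otherwise: the 4 probe sets of Farsa changed by −0.44, 0.11, −0.06 and −0.08, and the 4 of Qars1 by −0.32, −0.35, −0.01 and 0.14. With the mean of a gene's probe sets neither was called (Farsa −0.12, adjusted p = 0.153, and Qars1 −0.13, adjusted p = 0.0996). Of the 19 synthetase genes called with ICG, 11 had several probe sets, and in the other 9 of these all probe sets had the same sign.

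The 3 cytosolic genes that were not called were Kars1, which gives both the cytosolic and the mitochondrial lysyl enzyme, and the genes for the seryl and valyl enzymes. Kars1 read 10.07, 10.11 and 10.21 with ICG, against 10.15, 10.09 and 9.84 with DMSO (0.10, 95% interval −0.08 to 0.29). The groups overlapped. Sars1 read 10.61, 10.70 and 10.58 with ICG, against 10.32, 10.43 and 10.55 with DMSO (0.20, interval 0.04 to 0.36, limma adjusted p = 0.0625), with no overlap. Vars1 read 8.57, 8.53 and 8.33 with ICG, against 8.41, 8.53 and 8.56 with DMSO (−0.02, interval −0.20 to 0.15), and its groups overlapped.

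Among the mitochondrial genes Tars2, the threonyl enzyme gene, had the largest change with ICG. It read 7.77, 7.93 and 8.08 with ICG, against 7.30, 7.35 and 7.46 with DMSO, a change of 0.56 ± 0.09 (limma adjusted p = 0.00126). All its ICG arrays lay above its DMSO arrays. The arginyl enzyme gene Rars2 read 8.89, 8.90 and 8.95 with ICG, against 8.59, 8.63 and 8.63 with DMSO (0.30 ± 0.06, limma adjusted p = 0.00411). The alanyl enzyme gene Aars2 read 7.42, 7.45 and 7.46, against 7.28, 7.23 and 7.21 (0.20 ± 0.05, limma adjusted p = 0.0192), and this call was lost without any 1 of 4 arrays (0.0531 to 0.0632). Neither gene's groups overlapped.

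The other 13 mitochondrial genes changed by −0.17 (Pars2, proline) to 0.26 (Yars2, tyrosine) with ICG and were not called. Cars2, the cysteinyl enzyme gene, read 7.05, 7.00 and 7.12 with ICG, against 7.26, 7.19 and 7.15 with DMSO (−0.14 ± 0.06, limma adjusted p = 0.105). It was the mitochondrial gene whose ICG arrays all lay below the DMSO arrays. Mars2 read 3.57 to 4.54 and Sars2 5.34 to 6.11 over the 15 arrays, and both were left out by the filter on dim probe sets that was tried as an alternative.

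For 13 amino acids a single cytosolic and a single mitochondrial gene are among the 35. The cytosolic gene had the higher change in 11 of 13 pairs with ICG, in 3 with PHA and in 9 with PHA+ICG. With ICG the widest gap was that of tryptophan, at 1.09 for Wars1 and −0.01 for Wars2, and the asparagine pair stood at 1.16 for Nars1 and 0.10 for Nars2. In 3 pairs both genes rose with ICG, those of threonine (0.98 for Tars1 and 0.56 for Tars2), arginine and alanine. In the pairs of histidine and valine the mitochondrial gene had the higher change with ICG. Phenylalanine, with 2 cytosolic genes, is not counted in these pairs: with ICG Farsa (−0.44) and Farsb (−0.36) both stood below Fars2 (−0.07), the mitochondrial gene. With PHA Farsa (−0.20) and Farsb (−0.18) again stood below Fars2 (0.09). With PHA+ICG Farsa (−0.36) and Fars2 (−0.37) were nearly equal, and Farsb (0.18) stood above both. The other probe sets of Farsb changed by −0.09, −0.12 and 0.16 with PHA+ICG.

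**Figure D3:**
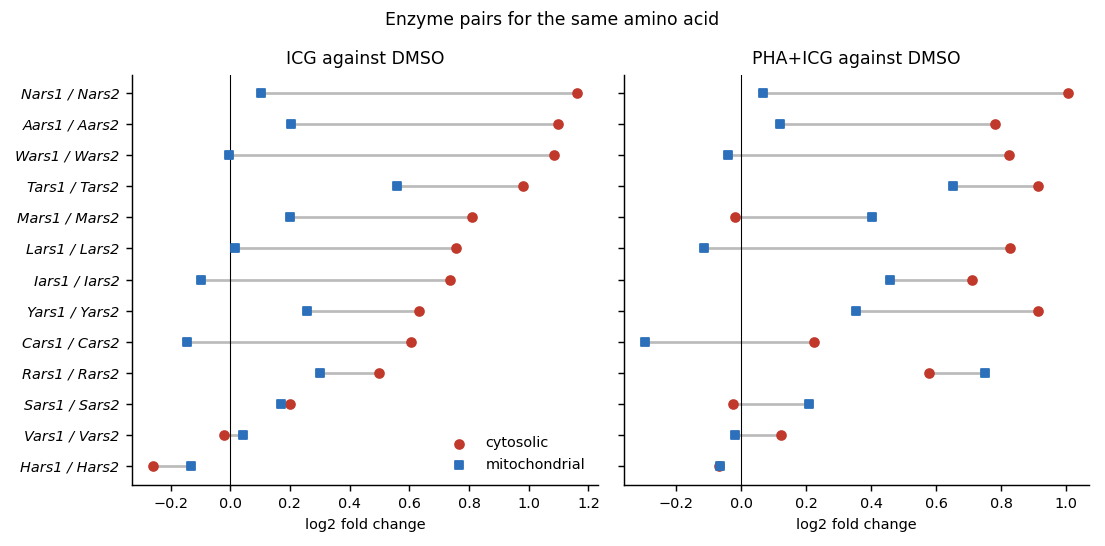
Log2 fold change of the cytosolic (circles) and mitochondrial (squares) gene for the same amino acid, joined by a line, with ICG (left) and PHA+ICG (right) against the DMSO arrays of the same set. With ICG the circle lies to the right in 11 of 13 pairs, and with PHA+ICG in 9.

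Synthetases fall into class I and class II by the fold of their catalytic domain. Of the 10 cytosolic class I genes 8 rose with ICG and 1 fell, with a median change of 0.65, and of the 9 class II genes 4 rose and 3 fell, with a median of 0.20. Of all genes 11.9% were called higher with ICG and 15% lower. Of 7 cytosolic enzymes of the multi-synthetase complex, 5 rose (Eprs1, Iars1, Lars1, Mars1 and Rars1), Qars1 fell, and Kars1 was not called. Of the 3 scaffold genes of that complex, Eef1e1 read 11.12, 11.20 and 11.11 with ICG, against 10.82, 10.68 and 10.68 with DMSO (0.42 ± 0.06, limma adjusted p = 0.00082). Its groups did not overlap. Aimp1 changed by 0.03 ± 0.06 and Aimp2 by −0.18 ± 0.06, and neither was called.

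Mitochondria make glutaminyl-tRNA indirectly, through an amidotransferase encoded by Qrsl1, Gatb and Gatc. Of these genes and Mtfmt, which formylates the initiator methionyl-tRNA, 2 of 4 rose with ICG, beside 11.9% of all genes. Gatc read 7.77, 7.93 and 7.78 with ICG, against 7.46, 7.43 and 7.35 with DMSO (0.41 ± 0.07, limma adjusted p = 0.0021). Qrsl1 rose by 0.33 ± 0.08. Gatc was also called with PHA (0.29 ± 0.07) and PHA+ICG (1.33 ± 0.22, limma adjusted p = 0.026), where it read 9.11, 9.03 and 8.58, against 7.93, 7.49 and 7.30 with DMSO.

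Genes of the ATF4 pathway were counted beside the synthetases. With ICG 16 of 17 rose, 0 fell, and the median change was 1.15, while 11.9% of all genes were called higher and 15% lower. Atf4 itself read 12.49, 12.57 and 12.65 with ICG, against 11.95, 11.87 and 11.79 with DMSO (0.70 ± 0.07, limma adjusted p = 7.5e-05). Its groups did not overlap. The pseudokinase gene Trib3 rose by 2.10 ± 0.08 and Chac1, whose product degrades glutathione, by 1.95 ± 0.09; Slc7a11, the cystine transporter gene, was not called (0.31 ± 0.12).

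The response element core was looked for in promoter sequence because 12 cytosolic genes rose together with ICG. RefSeq windows of 300 bases on GRCm38.p6, with 250 bases before and 50 after an annotated start, were at hand for 26 of the 35 genes, 12 cytosolic and 14 mitochondrial. The core searched was TGATGNAA, on either strand, which on the other strand reads TTNCATCA. It was present in 5 of 12 cytosolic windows (41.7%: Aars1, Gars1, Iars1, Tars1 and Yars1), in 0 of 14 mitochondrial windows, and in 1219 of 27025 genes with a window (4.51%). All 5 genes rose with ICG. They were 5 of the 7 cytosolic genes with a window that rose, and the 5 other cytosolic genes with a window, 3 of which fell, held 0 matches. Mars1 and Eprs1 rose and held no match in these windows, that of Eprs1 belonging to a start 1627 bases inside the gene. For Nars1, Wars1, Lars1, Cars1 and Rars1, which also rose, no window was at hand. Several mitochondrial windows likewise belong to starts well inside the gene. They are those of Aars2 (3317 and 3326 bases), Tars2 (1388), Wars2 (983), Nars2 (688) and Fars2 (215). The mitochondrial count of 0 covers only the windows at hand. The genes were grouped by the same ICG calls that prompted the search, so these counts only describe them. A part of the element in the changes was not tested.

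**Figure D4:**
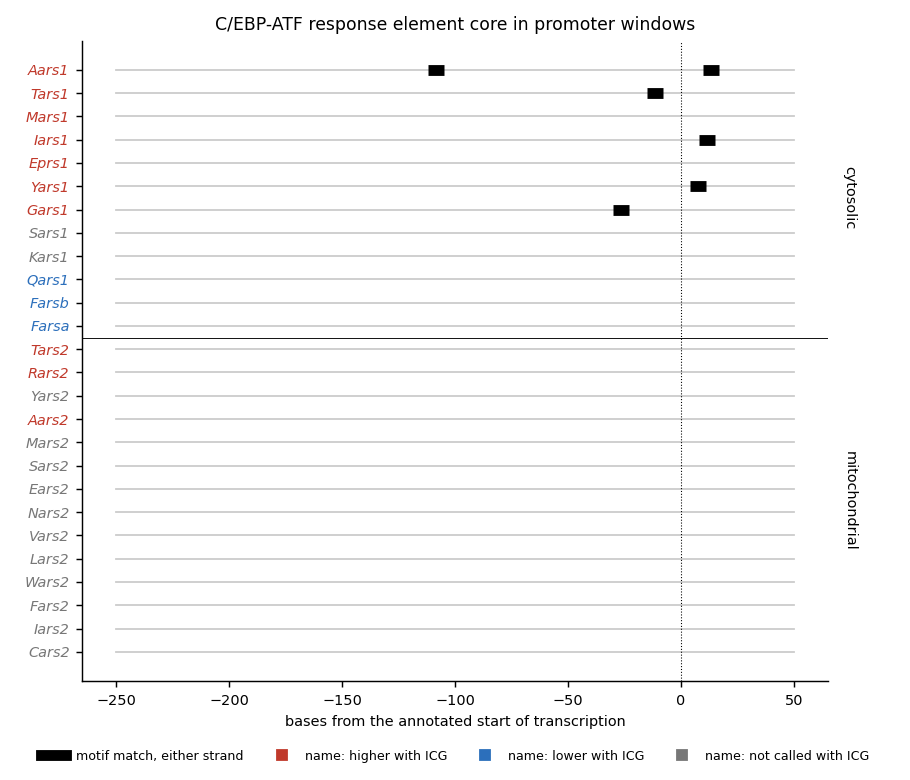
Position of the response element core, on either strand, in the promoter windows of 26 synthetase genes, in bases from the annotated start of transcription; black bars are matches and the colour of a name gives the call with ICG. The 6 matches lie in 5 cytosolic genes, all called higher, 5 of them within 30 bases of the start.

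The 3 upstream stretches that hold a match are shown with the core in capitals, each 250 bases long and read 5′ to 3′ on the gene's strand, because they belong to genes that rose with ICG. The last stretch, without a match, is that of Tars2, the mitochondrial counterpart of Tars1. They lie on GRCm38.p6 at chr8:111033592-111033841 (plus strand, Aars1), chr15:11399659-11399908 (minus, Tars1), chr6:55037751-55038000 (plus, Gars1) and chr3:95754978-95755227 (minus, Tars2). The windows of Aars1, Tars2 and Yars1 belong to starts 6064, 1388 and 169 bases inside the annotated span of those genes. The core stands at bases −112 to −105 from the start in Aars1, −15 to −8 in Tars1 and −30 to −23 in Gars1.
Aars1: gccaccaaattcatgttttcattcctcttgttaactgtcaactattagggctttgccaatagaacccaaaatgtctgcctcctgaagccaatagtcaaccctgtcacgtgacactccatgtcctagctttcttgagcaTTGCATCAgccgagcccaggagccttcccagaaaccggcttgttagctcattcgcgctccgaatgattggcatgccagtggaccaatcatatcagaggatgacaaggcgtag
Tars1: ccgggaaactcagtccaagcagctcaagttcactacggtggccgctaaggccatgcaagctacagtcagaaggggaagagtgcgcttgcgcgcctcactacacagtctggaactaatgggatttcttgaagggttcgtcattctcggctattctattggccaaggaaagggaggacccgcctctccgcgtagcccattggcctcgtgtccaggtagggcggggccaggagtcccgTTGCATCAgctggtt
Gars1: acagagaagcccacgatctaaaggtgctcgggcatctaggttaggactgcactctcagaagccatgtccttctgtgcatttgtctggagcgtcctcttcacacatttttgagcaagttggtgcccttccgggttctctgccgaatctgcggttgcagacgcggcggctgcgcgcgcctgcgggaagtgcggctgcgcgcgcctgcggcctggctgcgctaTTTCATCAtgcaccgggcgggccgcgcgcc
Tars2: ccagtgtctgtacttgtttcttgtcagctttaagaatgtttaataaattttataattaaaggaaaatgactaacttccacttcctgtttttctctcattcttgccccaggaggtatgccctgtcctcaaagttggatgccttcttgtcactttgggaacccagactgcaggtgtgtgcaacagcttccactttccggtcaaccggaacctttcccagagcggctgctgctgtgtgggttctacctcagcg

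The 3 further matches lie just after the start and are shown with 11 bases on each side, again with the core in capitals. They are a second one in Aars1 (chr8:111033840-111033869, bases 10 to 17 from the start), 1 in Iars1 (chr13:49682126-49682155, bases 8 to 15) and 1 in Yars1 (chr4:129189895-129189924, bases 4 to 11).
Aars1: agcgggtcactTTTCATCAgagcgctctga
Iars1: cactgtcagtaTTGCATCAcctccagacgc
Yars1: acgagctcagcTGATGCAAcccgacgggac

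PHA against DMSO asks the same when MET is inhibited. With PHA 0 of 19 cytosolic genes rose and 2 fell, and 2 of 16 mitochondrial genes rose and 0 fell. Over all genes 10.2% were called, 3.14% higher and 7.07% lower. The median change was −0.07 for the cytosolic genes, −0.00 for the mitochondrial genes and 0.02 for all genes. Of the cytosolic changes 18 of 19 were below 0, as were 8156 of the changes of all 18193 genes. The changes share the same 3 DMSO arrays, so their signs are not independent. All PHA arrays lay below all DMSO arrays for 8 cytosolic and 2 mitochondrial genes (16.2% of all genes), and above them for 0 and 5 (15.4%).

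The cytosolic genes that fell were those of the alanyl and glycyl enzymes. Aars1 read 9.93, 9.89 and 10.09 with PHA, against 10.28, 10.27 and 10.19 with DMSO (−0.27 ± 0.07, limma adjusted p = 0.0353). Gars1, which also gives both a cytosolic and a mitochondrial enzyme, read 10.10, 10.03 and 10.004 with PHA, against 10.40, 10.29 and 10.25 with DMSO (−0.27 ± 0.07, limma adjusted p = 0.0336). The groups did not overlap for either gene. Nars1 read 11.41, 11.47 and 11.42 with PHA, against 11.67, 11.59 and 11.52 with DMSO (−0.16 ± 0.06, limma adjusted p = 0.15), and Mars1 stood at −0.21 ± 0.06 (limma adjusted p = 0.0656).

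The mitochondrial genes that rose with PHA were Cars2 and Rars2. Cars2 read 7.47, 7.49 and 7.43 with PHA, against 7.26, 7.19 and 7.15 with DMSO (0.26 ± 0.06, limma adjusted p = 0.0224). Rars2 read 8.90, 8.85 and 8.76 with PHA, against 8.59, 8.63 and 8.63 with DMSO (0.22 ± 0.06, limma adjusted p = 0.0415). Neither gene's groups overlapped. All 4 PHA calls were weak: Gars1 lost its call whichever of the 6 arrays was left out (adjusted p of 0.0524 to 0.102), Aars1 and Rars2 in 5 of 6 cases, Cars2 in 4, and all 4 in the unweighted fit of all arrays. Of the ATF4 pathway genes 0 of 17 rose with PHA and 5 fell (Chac1, Phgdh, Shmt2, Cth and Slc7a11), with a median change of −0.16, and Atf4 changed by −0.14 ± 0.07. Of all genes 3.14% were called higher with PHA and 7.07% lower.

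ICG was also tested against PHA directly, with the shared DMSO arrays out of the contrast. Of the cytosolic genes 13 were higher with ICG than with PHA and 2 lower (Farsa and Qars1), at a median of 0.70, and of the mitochondrial genes 2 were higher (Tars2, 0.74 ± 0.09, and Sars2, 0.37 ± 0.07) and Cars2 lower (−0.41 ± 0.06). Over all genes 27.1% were called, 13.4% higher and 13.7% lower. The widest cytosolic difference was that of Aars1, 1.37 ± 0.07 (limma adjusted p = 1.9e-06), and Nars1 followed at 1.32 ± 0.06. All ICG arrays lay above all PHA arrays for 14 of 19 cytosolic and 4 of 16 mitochondrial genes (20.8% of all genes).

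PHA+ICG against DMSO asks the same of the combination, in the set of arrays with the wider spread. Of 19 cytosolic genes 1 rose, Nars1, and 0 fell, and of 16 mitochondrial genes 0 were called by limma, 4 having an unadjusted p under 0.05. Over all genes 2.02% were called, 0.478% higher and 1.54% lower. Nars1 read 13.21, 13.17 and 13.03 with PHA+ICG, against 12.09, 12.06 and 12.24 with DMSO, a change of 1.01 ± 0.15 or 2.01-fold (limma adjusted p = 0.0177). No PHA+ICG array came near a DMSO array. Its call was lost without DMSO replicate 2 (adjusted p = 0.109), DMSO replicate 3 (0.0888) or PHA+ICG replicate 3 (0.0709), at changes of 0.97 to 1.06.

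The other cytosolic genes that rose with ICG missed the threshold with PHA+ICG. Tars1 read 11.36, 11.69 and 11.15 with PHA+ICG, against 10.35, 10.49 and 10.62 with DMSO (0.91 ± 0.19, limma adjusted p = 0.0518). Lars1 read 11.08, 11.34 and 10.90, against 10.13, 10.40 and 10.31 (0.83 ± 0.17, limma adjusted p = 0.0583). Both genes' groups stood apart. Aars1 read 11.80, 11.77 and 11.36 with PHA+ICG, against 10.60, 11.06 and 10.92 with DMSO (0.78 ± 0.20, limma adjusted p = 0.0995), and Wars1 read 9.64, 8.85 and 9.62, against 8.17, 8.79 and 8.68 (0.82 ± 0.26). PHA+ICG replicate 2 was the low array for Wars1, close to the highest DMSO array.

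All PHA+ICG arrays lay above all DMSO arrays for 9 of 19 cytosolic genes and 3 of 16 mitochondrial genes (7.33% of all genes), and below them for Qars1 alone (11% of all genes). An unadjusted p under 0.05 was reached by 10 cytosolic genes, 9 of them higher. The median change was 0.22 for the cytosolic genes, 0.14 for the mitochondrial genes and 0.00 for all genes. Mars1, which had risen with ICG, read 9.81, 9.00 and 9.97 with PHA+ICG, against 9.72, 9.52 and 9.59 with DMSO (−0.02 ± 0.25), with PHA+ICG replicate 2 the lowest of all 6 arrays and a change of 0.28 ± 0.15 without it. The change of Mars1 was −0.13 ± 0.28 without PHA+ICG replicate 1 and −0.21 ± 0.27 without PHA+ICG replicate 3. Qars1 read 10.79, 9.86 and 10.56, against 11.01, 11.04 and 11.05 (−0.63 ± 0.24, limma adjusted p = 0.289). Without PHA+ICG replicate 2 its change was −0.36 ± 0.15, and its other 3 probe sets changed by −0.04, −0.04 and 0.19. The change of Qars1 was −0.83 ± 0.23 without PHA+ICG replicate 1 and −0.71 ± 0.29 without PHA+ICG replicate 3.

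In set 2 arrays with the same replicate number deviated together, and with the replicate number as a block 7 cytosolic genes were called, all higher, beside 7.93% of all genes, 1.92% higher and 6.01% lower. Beside Nars1 these were Aars1 (adjusted p = 0.0268), Eprs1 (0.0325), Iars1 (0.0369), Lars1 (0.0119), Tars1 (0.0114) and Yars1 (0.0104), and the mitochondrial gene Rars2 was called too (0.0246). Rars2 read 9.27, 9.55 and 9.18 with PHA+ICG, against 8.46, 8.54 and 8.75 with DMSO (0.75 ± 0.17, adjusted p = 0.0733 without the block). Tars2 read 8.27, 7.22 and 8.20, against 7.42, 7.18 and 7.14 (0.65 ± 0.28), and PHA+ICG replicate 2 lay among its DMSO arrays. Without that array the change of Tars2 was 0.99 ± 0.16 (limma adjusted p = 0.0502, no block). Without PHA+ICG replicate 1 the change of Tars2 was 0.46 ± 0.29 (limma adjusted p = 0.497, no block). Leaving out PHA+ICG replicate 3 gave 0.50 ± 0.32 for Tars2 (limma adjusted p = 0.677, no block). Its other probe set changed by 1.03 on all arrays of set 2. With the mean of its probe sets Tars2 was called (0.84, limma adjusted p = 0.0182, no block). Of the ATF4 pathway genes 5 of 17 rose with PHA+ICG (Trib3, Sesn2, Cth, Slc7a11 and Nupr1), with a median change of 1.07. In the same fit, without the block, 0.478% of all genes were called higher.

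Averaged over the cytosolic list, each array was set against the mean of the DMSO arrays of its set. The ICG arrays stood at 0.455, 0.457 and 0.409, the PHA arrays at −0.107, −0.128 and −0.0904, and the PHA+ICG arrays at 0.479, 0.238 and 0.349. The DMSO arrays lay between −0.0332 and 0.0222 in set 1 and between −0.134 and 0.0873 in set 2. Over the mitochondrial list the ICG arrays stood at 0.0466, 0.0548 and 0.152, the PHA arrays at 0.0279, −0.0430 and 0.0685, and the PHA+ICG arrays at 0.295, 0.118 and 0.112. On each ICG and PHA+ICG array the cytosolic mean was above the mitochondrial mean, and on each PHA array below it.

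**Figure D5:**
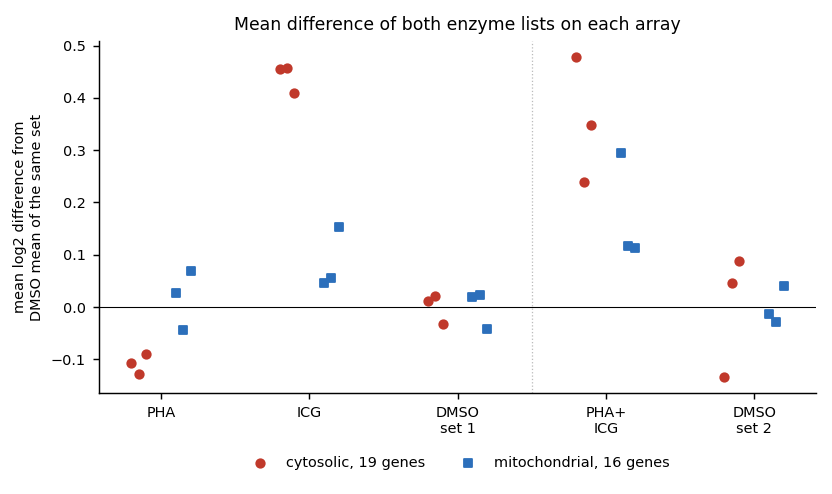
Mean log2 difference of the 19 cytosolic genes (circles) and the 16 mitochondrial genes (squares) from the DMSO mean of the same set, for each array. The ICG circles lie at 0.409 to 0.457 and the PHA+ICG circles at 0.238 to 0.479, above all DMSO arrays, and the PHA circles at −0.128 to −0.0904.

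Whether the effects differ between treatments of different sets was tested as the difference of the changes, each against its own DMSO. Between PHA+ICG and ICG, 0 of 19 cytosolic and 0 of 16 mitochondrial genes were called by limma (0.385% of all genes), with 2 of each list at an unadjusted p under 0.05. The difference was −0.16 for Nars1, with an interval of −0.50 to 0.19, and −0.83 for Mars1, with an interval of −1.32 to −0.34 (limma adjusted p = 0.2). Without PHA+ICG replicate 2, the low array for Mars1, that difference was −0.53 ± 0.16. It was −0.94 ± 0.25 without PHA+ICG replicate 1 and −1.01 ± 0.24 without PHA+ICG replicate 3. A p that misses the threshold does not show that the effects are alike. Between PHA+ICG and PHA, 6 cytosolic genes were called, all with the higher change under PHA+ICG, and 0 of the mitochondrial genes (5 at an unadjusted p under 0.05), beside 2.74% of all genes, 1.08% higher and 1.66% lower.

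The 6 genes were Nars1 (1.16 ± 0.16, limma adjusted p = 0.00162), Aars1 (1.06 ± 0.20), Yars1 (1.03 ± 0.21), Tars1 (0.91 ± 0.19), Lars1 (0.90 ± 0.16) and Iars1 (0.78 ± 0.19). The promoter windows of Aars1, Yars1, Tars1 and Iars1 held the response element core, and no window was used for Nars1 and Lars1. Gars1, whose window also held the core, was not among the 6 and changed by 0.08 with PHA+ICG. A part of the element in these differences was not tested. The count of cytosolic genes was 1 without DMSO replicate 3 of set 2, 3 without DMSO replicate 2 and 8 without PHA+ICG replicate 2. This fit takes the ratio of the spreads of both sets as the same for all genes.

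Markers of other cells moved in the same arrays. With ICG 9 of 10 fibroblast markers and 7 of 10 leukocyte markers fell, and of 9 epithelial markers 2 rose and 4 fell. Over all genes 11.9% were called higher and 15% lower. The median change was −1.38 for the fibroblast markers (−2.49 to 0.05) and −0.76 for the leukocyte markers (−2.75 to 0.02). It was −0.20 for the epithelial markers (−0.40 to 0.44) and −0.01 for the endothelial markers (−0.08 to 0.35). Summed on the linear scale, the fibroblast markers reached 29500 to 33553 with ICG, against 37988 to 47464 with DMSO, the leukocyte markers 45250 to 46737, against 48982 to 55956, the epithelial markers 4824 to 5445, against 5687 to 6077, and the endothelial markers 289 to 320, against 273 to 318. Such sums weigh the brightest markers most. Of these, Dcn averaged 14.31 with ICG against 14.25 with DMSO, and Lyz2 14.53 against 14.51. The part of the markers in the synthetase changes was not tested. With PHA 6 of 10 fibroblast and 2 of 10 leukocyte markers fell, with sums of 30526 to 31017 and of 45996 to 49582. Their median changes were −0.65 and −0.40, and 7.07% of all genes were called lower with PHA.

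In set 2 the leukocyte markers summed to 8272 to 30541 with PHA+ICG, against 10872 to 39655 with DMSO, and the fibroblast markers to 70649 to 80564, against 95787 to 109871, with 2 of 10 fibroblast and 0 of 10 leukocyte markers called lower (4 of the leukocyte markers at an unadjusted p under 0.05). The median change with PHA+ICG was −0.98 for the leukocyte and −0.54 for the fibroblast markers, and 1.54% of all genes were called lower. The 9 epithelial markers all had changes below 0 with PHA+ICG, at −1.29 to −0.19 with a median of −0.56. By limma 0 of them were called, 3 had an unadjusted p under 0.05, and their sums were 2650 to 6751 with PHA+ICG, against 5967 to 7142 with DMSO. The leukocyte gene Ptprc read 9.20, 5.54 and 6.20 with PHA+ICG and 10.04, 6.79 and 6.64 with DMSO, the widest range of a marker named here. Replicate 1 was thus the high array of both groups. This held for Cd68 and Lyz2 too, but for Aif1 only with DMSO. The part of this difference between replicates in the block fit of set 2 was not tested. The 3′ minus 5′ reading of the Actb control, a sign of RNA quality, averaged 0.631 ± 0.0697 with ICG, 0.541 ± 0.0562 with PHA and 0.447 ± 0.124 with DMSO of set 1, and 0.591 ± 0.161 with PHA+ICG and 0.590 ± 0.111 with its DMSO (SD, n = 3 each). That of the Gapdh control averaged 0.193 ± 0.0454 with ICG, 0.103 ± 0.0361 with PHA and 0.116 ± 0.0453 with DMSO of set 1 (SD, n = 3 each). In set 2 it averaged 0.402 ± 0.305 with PHA+ICG, with a highest array at 0.685, against 0.182 ± 0.0786 with DMSO (SD, n = 3 each). The part of the epithelial markers and of both controls in the results was not tested.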

How the data were processed

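The deposited table gives log2 values for 45101 probe sets and 15 arrays. The submitters' processing notes list RMA and MAS5; the values have the range of RMA. Nothing says if set 1 and set 2 were normalized in 1 run, so levels were not compared between sets. Per the labels, 250 ng of total RNA per sample was amplified and labelled, and the samples fall into 5 groups of 3.

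Probe sets were named with the platform's annotation table, 34945 with 1 symbol and 932, left out, with several. The probe set with the highest mean stood for a gene, which gave 18193 genes. The 35 members had 72 probe sets, and 23 members had more than 1.

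Each set of arrays was fitted on its own with limma 3.58.1 in R 4.3.3, since set 2 spread 2.22 times as widely as set 1: 9 arrays with 6 residual degrees of freedom for PHA and ICG, and 6 arrays with 4 for PHA+ICG. Differences between changes of different sets used all 15 arrays with 1 weight per title code. P-values were adjusted over all genes of a comparison. The scripts' calls were tested on simulated data. The number of arrays limits the precision.

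Same-numbered arrays deviated together in set 2 (correlations of their deviations from the group means 0.614, 0.363 and 0.277) and were treated as pairs in an alternative fit, although replicates 2 and 3 also correlated across numbers (0.351 and 0.238). In set 1 those correlations were −0.262 to 0.117, and the numbers pair nothing there.

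Values on every array are given for members called in a treatment that rank in the top 5 of their list by the size of the change, for the cytosolic members not called with ICG, and for Farsa, Farsb, Qars1, Hars1 and others singled out after their values were seen; the rest are given by their change. The members, the gene lists and the tests were chosen with earlier results of these data known, so no list was tested as a whole. Promoter sequences are from RefSeq (GRCm38.p6). The alternatives were 1 fit of all 15 arrays with and without weights, quantile normalization, median centring, the mean of a gene's probe sets, genes with a mean log2 value of at least 6, eBayes with trend and robust, the replicate number as a block, and each array left out in turn. A comparison of the enzymes' protein sequences was not made here.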

Additional observations from a re-analysis of the deposited data

How the results depend on the processing

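Of all values recomputed under the alternatives, 0 changed direction past the threshold. With ICG the cytosolic count of 16 called genes (12 higher, 4 lower) kept within 1.5 times under each alternative, but the lower calls were 1 in the unweighted fit (11 higher), 2 with the mean of probe sets (13 higher) and 2 without ICG replicate 3 (12 higher); 14 to 16 were called with an array left out; the median was 0.51 with the mean of a gene's probe sets and 0.56 to 0.64 with an array left out. The mitochondrial count with ICG was 0 in the unweighted fit of 15 arrays and 5 with the mean of probe sets or the filter on dim probe sets (2 to 4 with an array left out), and the median was 0.122 with quantile normalization and 0.0292 with that filter (0.0600 to 0.122). With PHA the cytosolic count of 2 was 0 in the unweighted fit and with quantile normalization, 1 with the mean of probe sets and the replicate block, and 4 with the filter and with trend and robust (0 to 1 with an array left out); the mitochondrial count of 2 was 0 in the unweighted fit and with the block, 1 with weights and with median centring, and 4 with quantile normalization (0 to 2), and its median 0.0509 with quantile normalization and 0.0470 with the filter (−0.0422 to 0.0493). The cytosolic median with PHA was −0.11 to −0.07 with an array left out. With PHA+ICG the cytosolic count of 1 was 10 in the unweighted fit, 6 with weights, 2 with quantile normalization, 3 with median centring, 4 with the mean of probe sets, 3 with trend and robust and 7 with the replicate block (0 to 1 with an array left out), and the median 0.34 with quantile normalization (0.13 to 0.35). Its mitochondrial count of 0 was 3, 1 (weights), 2 (mean of probe sets) and 1 (block), with 0 to 0 called when an array was left out and a median of 0.11 to 0.22. ICG against PHA gave 1 mitochondrial gene unweighted and 5 with the mean of probe sets (3 to 4 with an array left out), 13 to 15 cytosolic genes, medians of 0.59 (cytosolic, mean of probe sets; 0.68 to 0.75 with an array left out), 0.0303 (mitochondrial, mean of probe sets) and −0.0444 (mitochondrial, filter; −0.0114 to 0.0366 with an array left out).

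The PHA+ICG change minus the PHA change called 1 mitochondrial gene with the mean of probe sets and with the replicate block (0 to 1 with an array left out), with a mitochondrial median of 0.0407 under the filter (0.11 to 0.26), 1 to 8 cytosolic genes and cytosolic medians of 0.32 to 0.49. Minus the ICG change, 0 to 0 genes of either list were called, with medians of −0.14 to 0.00 and of 0.01 to 0.11. In set 1, where numbers do not pair the arrays, the block also ended the ICG calls of Aars2 (adjusted p = 0.0511) and Hars1 (0.0749). Over all genes the unweighted fit called 182 with PHA, 1255 with ICG, 2413 with PHA+ICG and 1463 for ICG against PHA, in place of 1858, 4896, 368 and 4939, and the block 1202 with PHA and 1442 with PHA+ICG; weights called 641 with PHA+ICG. The PHA+ICG change minus the ICG change called 160 (unweighted), 29 (filter), 107 (trend and robust) and 197 (block) in place of 70, and minus the PHA change 860 (unweighted), 769 (quantile normalization) and 958 (block) in place of 499. Quantile normalization moved the split of called genes to 826 higher and 1094 lower with PHA, in place of 572 and 1286, and to 131 and 248 with PHA+ICG, in place of 87 and 281. The pooled unweighted fit gives both sets 1 spread, which widens that of set 1 and narrows that of set 2; the cause of the other shifts was not tested. Low readings (Mars2, Sars2) and the spread of set 2 limit what these arrays can show.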

Other observations

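The steps next to tRNA charging were read from the same arrays. Over all genes 11.9% were called higher and 15% lower with ICG. Single calls in lists this short are not read as results about the lists. Of 4 cytosolic elongation factor genes measured, which deliver charged tRNAs to the ribosome or move it along, 2 fell with ICG and 0 rose: Eef2, the translocation factor, by −0.64 ± 0.06 (limma adjusted p = 6.2e-05) and Eef1b2, an exchange factor subunit, by −0.23 ± 0.07, while Eef1a1 changed by 0.02 ± 0.05. Of 8 mitochondrial translation factor genes measured, Tufm, which delivers tRNAs to the mitochondrial ribosome, changed by −0.40 ± 0.07 and was called lower with ICG, and 0 rose. Of 5 genes for proofreading and tRNA release measured, Dtd2, a deacylase of mischarged tRNA, was called higher (0.23 ± 0.08) and Ptrhd1 lower (−0.46 ± 0.07). With PHA+ICG 0 genes of these lists were called by limma (2.02% of all genes), and 2 had an unadjusted p under 0.05.

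Of the 4 genes for kinases of eIF2α, Eif2ak1, known as the haem-regulated kinase, was called higher with ICG (0.66 ± 0.08, limma adjusted p = 0.00033) and Eif2ak3, the kinase of the endoplasmic reticulum, lower (−0.57 ± 0.09). Over all genes 11.9% were called higher with ICG and 15% lower. With PHA+ICG Eif2ak1 and Eif2ak3 stood at 0.40 ± 0.26 and −0.87 ± 0.23 and were not called (2.02% of all genes were). With PHA 0 of the 4 kinase genes were called by limma (10.2% of all genes), and 0 had an unadjusted p under 0.05.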
